A study of Mus musculus with 20 samples.

Results

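The 81 genes described here encode the nuclear part of the oxidative phosphorylation machinery, and their UMI counts were followed in B-like, T-like, plasma-like and myeloid-like cells of 20 single-cell RNA libraries from transgenic mouse models of leukaemia. They were chosen by symbol (any feature starting with Nduf, Uqcr, Atp5, Cox4, Cox5, Cox6, Cox7 or Cox8) and selected on their measured level, a mean of at least 5 CPM over all cells of the 20 libraries, where CPM is UMIs of the gene per 1000000 UMIs. Of the 31053 features in the matrices, 89 had such a symbol and 81 of these passed the level. Each library held unselected live cells, prepared with 10x 3′ chemistry, from 1 mouse and 1 tissue, and 13 mice were used. The groups were 5 spleens of Eµ-PRMT5 mice, 4 spleens and 3 lymph nodes of Eµ-TCL1 mice, and 4 spleens and 4 lymph nodes of Eµ-PRMT5/TCL1 mice, which carry both transgenes. Both transgenes are human cDNAs placed under the immunoglobulin heavy chain promoter and Eµ enhancer, which act in B cells, so T and myeloid cells carry the DNA without being the intended site of expression, while plasma cells are of the B lineage. All mice are labelled C57BL/6N and were taken at the early removal criteria, ages are not given, and no wild-type mouse is among them. The Eµ-PRMT5 animals are heterozygous for their transgene, and Eµ-PRMT5 spleen 3 carries the number of a founder. The nodes are sub-mandibular, and 7 mice gave a node and a spleen. The node libraries have lower library numbers than the spleen libraries, so that tissue and library number cannot be told apart. Among the spleens, the highest library numbers belong only to Eµ-PRMT5 and Eµ-PRMT5/TCL1 mice, so genotype is partly tied to library number there too.

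Oxidative phosphorylation passes electrons through complexes I, III and IV of the inner mitochondrial membrane, and complex V uses the resulting proton gradient to make ATP. A small set of hydrophobic subunits is encoded by the mitochondrial genome, while the subunits studied here are made from nuclear genes and imported. In lymphocytes the machinery is known to be enlarged on activation and before division.

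The members comprised 7 core subunits, 30 accessory subunits and 8 assembly factors of complex I, 8 genes of complex III, 12 of complex IV and 16 of complex V. They lie on 19 chromosomes, with the most, 7 each, on chromosomes 2 and 17. Summed over members, the mean level over the libraries was 18715 CPM, of which complex V gave 6182, complex I accessory subunits 4972, complex IV 4838, complex III 1852, complex I core subunits 670 and assembly factors 201 CPM. Because the chemistry counts each molecule once at its 3′ end, CPM values were compared between genes without a correction for length. In B-like cells the highest means were those of Atp5g2, a proton-channel subunit of ATP synthase, at 1092 ± 356 CPM (SD, n = 20), Cox8a of cytochrome c oxidase at 844 ± 220, Cox4i1 of the same enzyme at 816 ± 217, Atp5e of the ATP synthase stalk at 768 ± 203 and Atp5b, its catalytic subunit, at 610 ± 143 CPM. Assembly factors had means over all cells of 11 to 55.0 CPM.

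The threshold of 5 CPM fell in a thin stretch of the distribution. Just above it were Atp5s, which is not a stable subunit, at 8.94 CPM, Cox6a2 at 9.87 and the assembly factor Ndufaf6 at 11 CPM. Just below it were Cox6b2 at 3.19, Cox7a1 at 1.33 and Cox4i2 at 0.608 CPM, and 79 of the 81 members reached 5 CPM in every library. The exceptions were Atp5s, which reached it in 18 libraries, and Cox6a2, which reached it in 11.

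Among paralogues, the RNA was almost wholly that of the broadly expressed isoforms. Cox4i1 stood at 827 CPM against 0.608 for the hypoxia-associated Cox4i2, Cox8a at 820 against 0.00374 for the muscle form Cox8b, and Cox6b1 at 365 against 3.19 for the testis form Cox6b2. Cox7a2 was measured at 288 CPM against 1.33 for the muscle form Cox7a1, while Cox7a2l, a relative of the same family, was at 282. Ndufa4, now placed in complex IV, had 1 paralogue below the threshold, Ndufa4l2, at 0.253 CPM. The 3 genes of the proton ring ranked Atp5g2, Atp5g3 and Atp5g1, with 861, 591 and 235 CPM, although their mature proteins are alike.

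The members' promoters were searched for the letters of factors known to act on nuclear respiratory genes. The windows ran from 250 bases before to 50 bases after each start (RefSeq, GRCm38.p6). Whether motifs go with the members' levels across libraries was not tested. Windows were found for 67 of the 81 members, 72 windows in all. The motif of NRF1, searched on both strands with any base in its middle position, stood in 18 member windows, or 25%, against 4.60% of all 32851 windows. With A in that position the shares were 9.72% and 0.971%. The YY1 motif stood in 8.33% of member windows and 0.852% of all, and the GABP/ETS letters CCGGAAGT in 6.94% and 3.89%. The Sp1 letters GGGCGG stood in 41.7% and 35.7%, and TATAAA in 8.33% and 13.6%, and matches of different motifs may overlap. A match describes letters and not binding, and the shares were not tested. Shown here are windows of 30 bases around 1 match for members of complexes I, III, IV and V, written 5′ to 3′ in the direction of the gene, with the match in capitals.
Ndufa11, complex I accessory subunit, chr17:56717692-56717721, plus strand: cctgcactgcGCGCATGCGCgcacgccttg
Ndufaf4, complex I assembly factor, chr4:24897960-24897989, plus strand: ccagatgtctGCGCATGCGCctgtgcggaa
Cox6a1, complex IV, chr5:115349101-115349130, minus strand: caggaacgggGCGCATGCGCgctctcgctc
Atp5g2, complex V, chr15:102671070-102671099, minus strand: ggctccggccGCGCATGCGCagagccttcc
Uqcr11, complex III, chr10:80406869-80406898, minus strand: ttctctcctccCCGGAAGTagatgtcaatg
Atp5h, complex V, chr11:115419940-115419969, minus strand: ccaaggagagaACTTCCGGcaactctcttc
Atp5j, complex V, chr16:84835045-84835074, minus strand: aagtgtaggaAAGATGGCGGagtcttagct
The first 4 carry the NRF1 motif, Uqcr11 and Atp5h the GABP/ETS letters on opposite strands, and Atp5j the YY1 motif.

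The libraries held 9348094 to 72440894 UMIs, and the kept cells 3402 to 13187 UMIs at the median. Clustering gave 36807 B-like, 36036 T-like, 4267 plasma-like and 7576 myeloid-like cells, the last made up of a neutrophil-like cluster and a second one, called the precursor/monocyte cluster here. That cluster held all 5 granulocyte-monocyte precursor markers, and its leading genes joined precursor genes (Mpo, Ctsg, Prtn3) with genes of monocytes (Tgfbi, F13a1, Fn1, Vcan, Csf1r). B-like and T-like cells were present in all 20 libraries at 102 cells or more, while 16 libraries had the 20 plasma-like cells required and 18 had 20 myeloid-like cells. The classes were named with the marker lists summed here, so these sums describe the classes and do not test their names. Summed B markers ran from 1045 to 7159 CPM in B-like cells and from 15 to 182 in T-like cells. The T markers ran from 2452 to 5956 CPM in T-like and 37.9 to 546 in B-like cells. Plasma markers ran from 6085 to 41754 CPM in the plasma-like cells used and from 655 to 4584 in B-like cells, but the plasma-like cells also held 932 to 6195 CPM of B markers, which in Eµ-TCL1 spleens 2 and 3 (5677 and 6195) was more than their B-like cells had (4716 and 4548). The same held for Eµ-PRMT5 spleen 4, with 1293 against 1045 CPM. A cluster with B markers but led by other genes held 19.6% of the cells of Eµ-TCL1 spleens, 6.15% of Eµ-TCL1 nodes and at most 0.127% of the other groups, and a T-marker cluster held 5.83% of the cells of Eµ-PRMT5 spleens. Both were left unnamed and out of the classes. The first drew 83.2% of its cells from Eµ-TCL1 spleen 2, so that this library kept 923 B-like cells where it had 5306 with the unnamed cluster, and the node of the same mouse (Eµ-TCL1 node 2) kept 204 of 898. Their B-like values therefore leave out most cells with B markers. With the unnamed clusters added back, 0 members were called in the 6 comparisons of B-like cells, and the member medians were -0.05, -0.26 and -0.17 in the spleens, 0.08 in the nodes and 0.13 between tissues, against 0.01, -0.20, -0.17, 0.08 and 0.15. Barcodes found in more than 1 library were 5158 of 87584, with 1 to 77 shared by a pair of libraries.

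A pair of libraries stood apart in the members' summed level before any comparison. Eµ-PRMT5 spleen 4 was the highest library in every class, with 30658 CPM in B-like, 27925 in T-like, 23642 in plasma-like and 27348 in myeloid-like cells. Eµ-PRMT5/TCL1 spleen 4 was the lowest in every class, with 10938, 11150, 6744 and 10551 CPM. In Eµ-PRMT5 spleen 4 the B-like cells also held the least B marker RNA, 1045 CPM against 4124 to 6703 in the other spleens of that group, and 84.5% of them had a UMI of a cell-cycle gene against 2.97% to 8.94%. In Eµ-PRMT5/TCL1 spleen 4 cytosolic ribosomal protein genes were at 107435 CPM in B-like cells against 258538 to 294541 in its group. The B-like cells of each formed a cluster of its own, of which that library gave 98.1% and 99.3% of the cells. The pair also carries adjacent library numbers, and the part of library number was not tested. The spleen comparisons are therefore given with and without both.

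**Figure D1:**
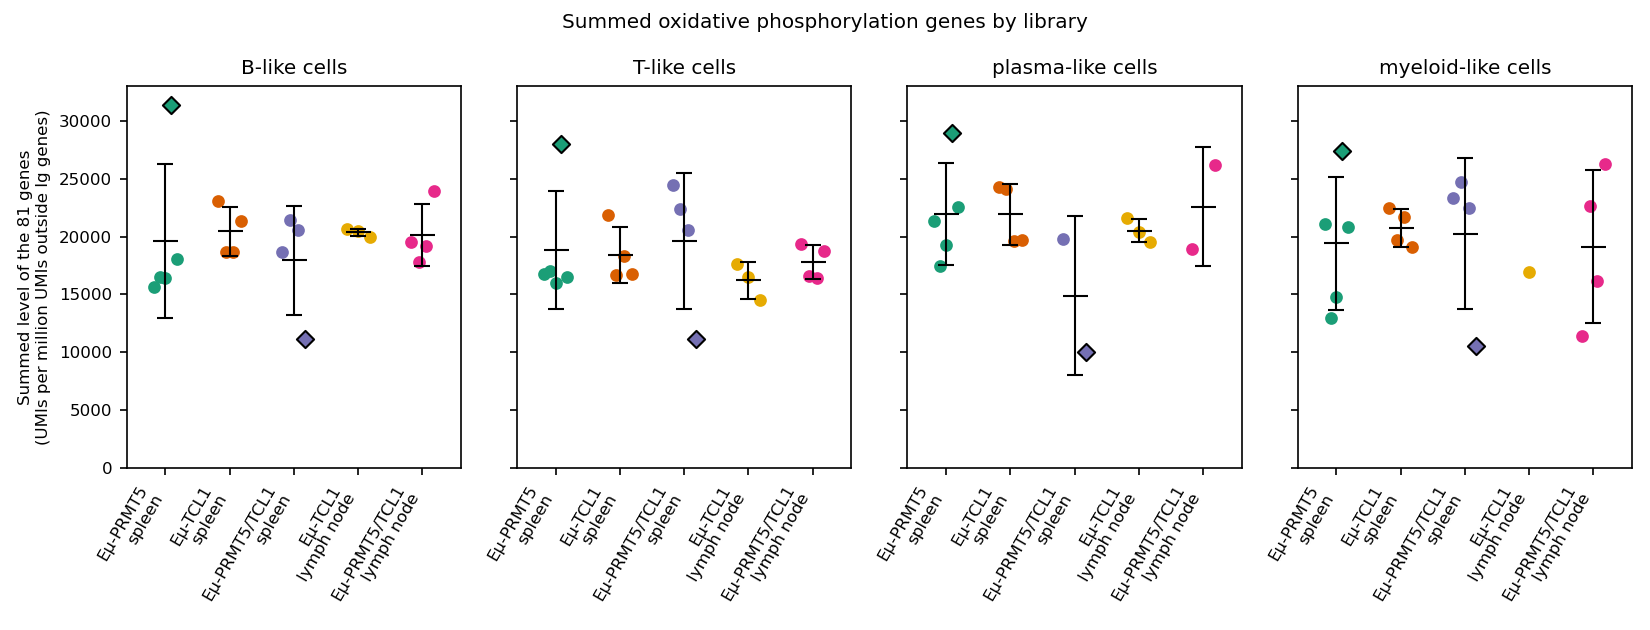
Summed level of the 81 genes (y axis, CPM over UMIs outside immunoglobulin genes) in each library, by class and group; bars are mean ± SD and diamonds are Eµ-PRMT5 spleen 4 and Eµ-PRMT5/TCL1 spleen 4. In B-like cells on this scale the diamonds lie at 31372 and 11142, above and below all other libraries.

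In Eµ-PRMT5/TCL1 spleen 4 the low sum did not hold for every member. Of 80 members measured in B-like cells, 61 were below and 19 above the median of the other 3 spleens of the group, with a median log2 difference of -1.37, while the median over all genes was 0.43. All 48 members with an annotated transcript under 1000 bases were lower, with a median of -1.69. Of the 32 members with longer transcripts 19 were higher, with a median of 0.24. Cox6c, a small subunit of complex IV with 503 bases, had 167 CPM against 740, and Atp5g2, with 441 bases, 575 against 1137. In the other direction, Atp5b, the catalytic subunit of ATP synthase, with 1916 bases, had 1013 CPM against 590, and Uqcrc1, a core protein of complex III, with 1653 bases, 314 against 161.

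The split by length recurred in the other classes of that library. All 48 short members were lower in T-like cells (median log2 -1.87), all 49 in plasma-like cells (-1.62) and all 49 in myeloid-like cells (-2.08), against medians of -0.05, -0.14 and 0.11 for the longer ones. Genes outside the members went the same way to a smaller extent, as the 667 others under 1000 bases had a median of -0.80 in B-like cells and the 8149 longer ones 0.48. Across the 80 members the Spearman correlation of the difference with transcript length was 0.70 in B-like cells, and between -0.45 and 0.42 in the other 19 libraries. Over 8896 genes with a length it was 0.05 in this library and -0.35 to 0.22 in the others. The rank correlation over all genes therefore did not set this library apart, although its other genes split at 1000 bases as given above. That split was taken only in this library and in Eµ-PRMT5 spleen 4. In Eµ-PRMT5 spleen 4 the members of both length classes were higher in B-like cells, 47 of 48 short ones and 25 of 32 longer ones, with medians of 0.87 and 0.75. Other genes did split by length there, with a median of 0.24 for the 667 short ones (61.3% higher) and -0.55 for the 8149 longer ones (28.3% higher). The part of library preparation or RNA quality in these values was not tested.

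In B-like cells the groups overlapped in the summed level of the members when all libraries were taken. The 5 Eµ-PRMT5 spleens had 15421, 16091, 16119, 30658 and 17651 CPM, the 4 Eµ-TCL1 spleens 22082, 18439, 18405 and 20606, and the 4 Eµ-PRMT5/TCL1 spleens 18324, 21160, 20386 and 10938 CPM. Without Eµ-PRMT5 spleen 4 every Eµ-PRMT5 spleen lay below every Eµ-TCL1 spleen, and with it the groups overlapped. Group means were 19188 ± 6464 (SD, n = 5), 19883 ± 1791 (SD, n = 4) and 17702 ± 4665 CPM (SD, n = 4). Leaving out the pair that stands apart, they became 16321 ± 944 (n = 4), 19883 and 19956 ± 1466 CPM (n = 3). In these sums and in the tests of B-like cells that follow, fewer cells of a kind within a class and less RNA of a gene per cell cannot be told apart. B-like clusters were unevenly shared between libraries beyond the pair that stands apart. Eµ-PRMT5 spleen 1 gave 45.3% of the cells of 1 cluster, Eµ-TCL1 spleen 4 gave 62.9% of another and Eµ-TCL1 spleen 3 gave 81.8% of a further one.

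For Eµ-PRMT5 against Eµ-TCL1 spleens no member of B-like cells passed the threshold of an adjusted p of 0.05, with edgeR's quasi-likelihood test and Benjamini-Hochberg adjustment over 11805 genes, nor with DESeq2. Over all genes 0.0339% were called by edgeR (4 genes) and 286 genes by DESeq2. Of the 81 members 42 were higher and 39 lower in Eµ-PRMT5, with a median log2 fold change of 0.01 beside 0.03 for all genes, and 2 had an unadjusted p under 0.05, against 13% of genes. Ndufa6 alone was lower without overlap between the groups, against 1.56% of genes, and no member was higher, against 1.24%. With the level of Xist, an RNA of the inactive X chromosome, as a covariate the members' median turned to -0.29. Without the pair of libraries that stands apart, 74 members were lower and 7 higher, the median was -0.36 beside -0.02 for all genes, and 31 members had an unadjusted p under 0.05, against 25.9% of genes. Still none was called then, against 0.577% of genes by edgeR (66 genes), the lowest adjusted p being 0.0645. Without Eµ-PRMT5 spleen 4 alone the median was -0.35, again with 74 lower, but 12 members had such a p, against 24.3% of genes. In the fit without the pair all 6 cell-cycle genes had an unadjusted p under 0.05, with a median of -2.78, as did 39 of 78 mitochondrial ribosome genes, with a median of -0.40. The share of B-like cells with a cell-cycle UMI was 2.97% to 8.94% in those 4 Eµ-PRMT5 spleens and 9.53% to 37% in the Eµ-TCL1 spleens, or 1.23% to 2.05% and 4.01% to 23.3% after thinning each cell to 1500 UMIs, without overlap, and its part in the members' difference was not tested.

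Ndufaf4, an assembly factor of complex I, was among the members with the lowest p in both comparisons with Eµ-PRMT5 spleens in B-like cells. Eµ-PRMT5 spleens held 53.2, 44.2, 74.3, 41.5 and 43.7 CPM. With Eµ-TCL1 alone the values were 24.4, 48.3, 40.0 and 22.5 CPM, and with both transgenes 36.1, 27.9, 32.7 and 34 CPM. The Eµ-PRMT5 spleens lay above all Eµ-PRMT5/TCL1 spleens and overlapped with the Eµ-TCL1 spleens. Its log2 fold change was 0.54 (SE 0.232, edgeR adjusted p 0.349) for Eµ-PRMT5 over Eµ-TCL1 and -0.66 (SE 0.232, edgeR adjusted p 0.441) for Eµ-PRMT5/TCL1 over Eµ-PRMT5. It was the only member whose groups did not overlap in that last comparison, in which 0.534% of genes were lower without overlap and 1.54% higher.

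Cox6a2, the striated-muscle form of a cytochrome c oxidase subunit, had the largest fitted differences in B-like cells but a low level in most spleens. Eµ-TCL1 spleens had 16.2, 0.158, 1.21 and 14.2 CPM, from 246, 1, 23 and 484 UMIs. Eµ-PRMT5 spleens had 0 to 2.12 and spleens with both transgenes 0.104 to 1.09 CPM. Only 2 Eµ-TCL1 spleens were above the others, and the groups overlapped. The summed plasma cell markers of the B-like cells were 4584, 1006, 3432 and 3585 CPM in these Eµ-TCL1 spleens, and 655 to 2044 in the other 9 spleens, so that both libraries with the most Cox6a2 were among the 3 with the most plasma marker RNA. The part of plasma cell RNA in this difference was not tested. The log2 fold changes against Eµ-TCL1 were -2.64 (SE 1.09, edgeR adjusted p 0.336) and -3.68 (SE 1.23, edgeR adjusted p 0.964). Ndufs1, the largest core subunit of complex I, was next by p for Eµ-PRMT5, with 22.6 to 46.4 CPM against 16.5 to 34.5 and a log2 fold change of 0.34 (SE 0.202).

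With both transgenes against Eµ-TCL1 alone, 0 members were called in B-like cells of the spleen by either tool, while 0.00847% of genes were by edgeR and 29 genes by DESeq2. Of the members 63 were lower and 18 higher, with a median of -0.20, and 1 had an unadjusted p under 0.05 against 4.74% of genes. The median was -0.59 with Xist as a covariate. Atp5a1, a catalytic-head subunit of ATP synthase, was higher without overlap, against 2.11% of genes, and no member was lower, against 1.13%. Without Eµ-PRMT5/TCL1 spleen 4 the median was 0.04, with 47 higher and 34 lower, and without the pair of libraries that stands apart it was 0.03, with 46 higher, 35 lower and 1 at an unadjusted p under 0.05 against 5.81% of genes. Complex IV and complex I accessory genes were the most one-sided with all libraries, 11 of 12 and 28 of 30 being lower with medians of -0.26 and -0.23. Ndufs5, an accessory subunit, had 106, 135, 119 and 26.1 CPM against 156, 121, 130 and 168, and the assembly factor Ndufaf3 39.3, 33.4, 53.5 and 23.2 CPM against 37.4, 41.5, 59.4 and 58.3. The groups overlapped for both genes, and spleen 4 was the lowest in each.

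Eµ-PRMT5/TCL1 against Eµ-PRMT5 spleens gave 0 calls among members and 0% of genes by edgeR, and 0 members but 125 genes by DESeq2. With all libraries 60 members were lower and 21 higher, with a median of -0.17, and 1 member had an unadjusted p under 0.05 against 9.12% of genes. Leaving out the pair that stands apart turned this to 75 higher and 6 lower, a median of 0.39, and 29 members with an unadjusted p under 0.05 against 19.9% of genes, again with none called (lowest edgeR adjusted p 0.157). All 6 cell-cycle genes and 35 of 78 mitochondrial ribosome genes had such a p in that fit, with medians of 2.40 and 0.37. Without Eµ-PRMT5 spleen 4 alone the members' median was 0.19 and 7 had such a p against 18.8% of genes, and without Eµ-PRMT5/TCL1 spleen 4 alone 0.04 and 1 against 9.68%. Ndufaf2, an assembly factor, followed Ndufaf4 by p, with 12.5, 15.4, 19.4 and 6.97 CPM against 12.5 to 39.8, and the groups overlapped. Ndufaf1, which acts in building the membrane arm of complex I, came next, with 16.2, 15, 18.4 and 27.4 CPM against 10.8 to 21.5. Both comparisons with Eµ-PRMT5 share its 5 spleens.

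**Figure D2:**
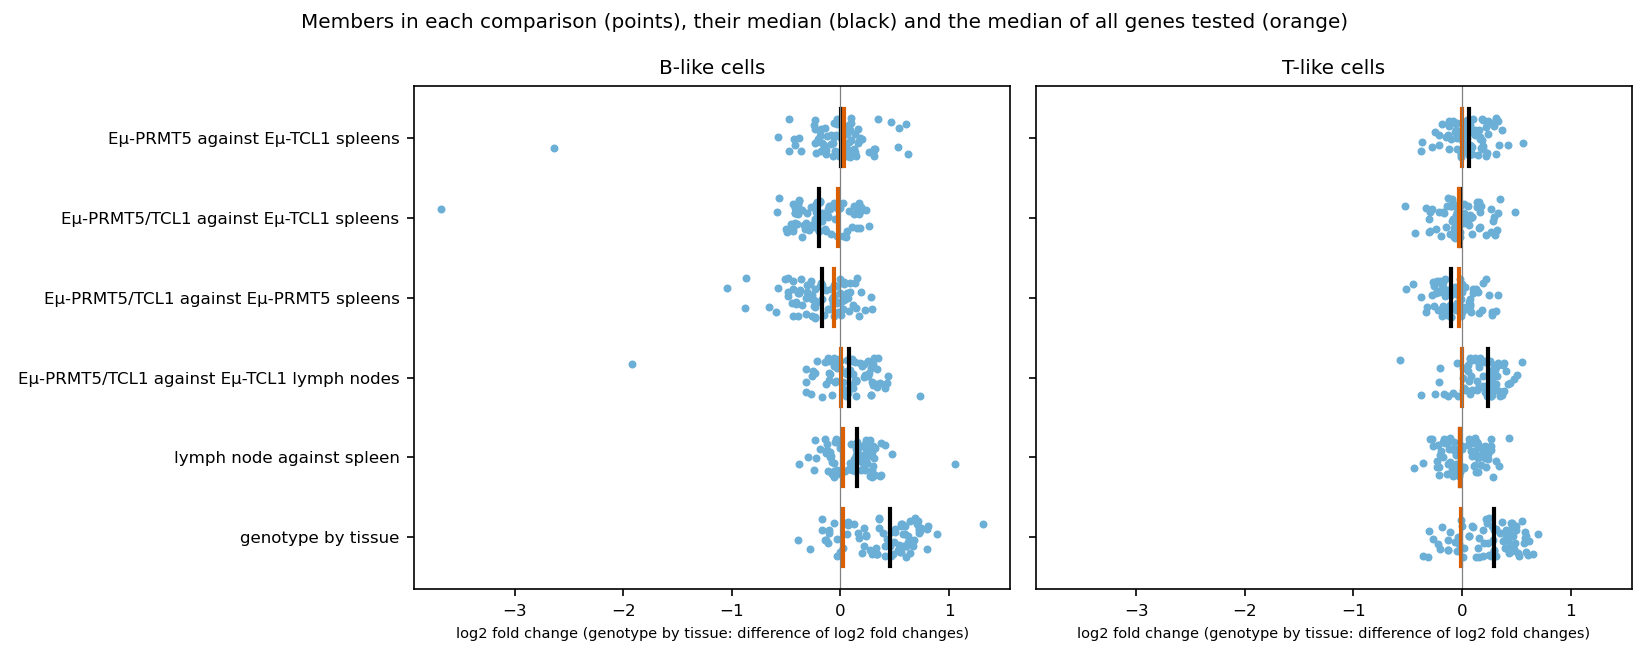
log2 fold change (x axis) of every member (blue points) in 6 comparisons in B-like and T-like cells, with the members' median (black) and that of all genes tested (orange). The member medians of these comparisons lie between -0.20 and 0.46 in B-like and between -0.10 and 0.30 in T-like cells, and the points far to the left in B-like cells are Cox6a2.

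In the lymph nodes B-like cells were alike in summed level, 19960, 19888 and 19304 CPM in Eµ-TCL1 and 19397, 17414, 19034 and 23508 in Eµ-PRMT5/TCL1. The Eµ-TCL1 values lie within the range of the other group. No member was called by edgeR or DESeq2 (0% of 10995 genes by edgeR, 71 genes by DESeq2), 53 were higher and 28 lower in Eµ-PRMT5/TCL1 with a median of 0.08, and 1 had an unadjusted p under 0.05 against 6.03% of genes. Without Eµ-PRMT5/TCL1 node 4, the highest, the median was -0.07, and with Xist as a covariate 0.01.

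Atp5j, a peripheral stalk subunit of ATP synthase, was the first by p in the nodes. It had 333, 272, 278 and 377 CPM in Eµ-PRMT5/TCL1 against 186, 163 and 254 in Eµ-TCL1, a log2 fold change of 0.73 (SE 0.273, edgeR adjusted p 0.809). Every Eµ-PRMT5/TCL1 node was above every Eµ-TCL1 node, which held for no other member, and for 1.65% of genes. Atp5g3, Ndufa11, Ndufs3 and Ndufs4 lay the other way without overlap, 4 members against 4.19% of genes. Cox7b, a small subunit of complex IV, had 221, 211, 240 and 267 against 212, 202 and 156 CPM, and its groups overlapped. Cox6a2 had 5.87, 0.197, 0.274 and 5.62 against 25.1, 2.37 and 10.8 CPM, also with overlap, and the plasma markers of these B-like cells were 700 to 2512 against 3896, 1597 and 2889 CPM.

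Comparing node with spleen of the same 7 mice, B-like cells again had 0 members called by edgeR or DESeq2, with 0.0329% of genes called by edgeR and 257 genes by DESeq2, and 2 members with an unadjusted p under 0.05 against 10.7% of genes. The summed level was lower in the node in 4 mice and higher in 3, by log2 differences of -0.15 to 0.15 in 6 of them and 0.83 in mouse M0980, whose spleen is Eµ-PRMT5/TCL1 spleen 4. The direction turned in M0228 with the unnamed clusters added back, from 18439 in the spleen and 19888 in the node to 19566 and 18859 CPM. Members had a median of 0.15, with 54 higher and 27 lower, which without that mouse became -0.04, with 22 higher and 59 lower. Within Eµ-TCL1 mice the median was -0.12 and within Eµ-PRMT5/TCL1 mice 0.37, with 0 members called by either tool (0% of genes by edgeR in both, 19 and 57 genes by DESeq2) and 0 under an unadjusted p of 0.05, against 4.90% and 6.65% of genes. Without M0980 the second of these medians was 0.00, with 41 higher and 40 lower. The test of that difference, an interaction, called 0 members by either tool (0% of genes by edgeR), 0 were under an unadjusted p of 0.05 against 2.10% of genes, and its median was 0.46 with all mice and 0.11 without M0980. Cox6a1, first by p there, went from 371 CPM in the spleen to 392 in the node of M0228, from 385 to 309 in M0244 and from 360 to 311 in M0322, the Eµ-TCL1 mice. In the mice with both transgenes it went from 343 to 444 in M0942, 286 to 270 in M0955-RT, 285 to 280 in M1040 and 109 to 297 in M0980, so that each genotype held mice of both directions.

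Uqcrc1 was the only member lower in the node of all 7 mice, against 1.97% of genes, and no member was higher in all, against 1.26%. In the 6 mice without M0980, Ndufa7, Ndufs8, Ndufv3 and Uqcrc1 were lower in every node, against 2.90% of genes, and no member was higher, against 2.98%. In B-like cells Uqcrc1 went from 171 CPM in the spleen to 147 in the node of M0228, 168 to 167 in M0244 and 192 to 160 in M0322 with Eµ-TCL1, and from 161 to 132 in M0942, 178 to 159 in M0955-RT, 159 to 121 in M1040 and 314 to 164 in M0980 with both transgenes. The step was 1 CPM in M0244 and largest in M0980, node and spleen values overlapped between mice, and the log2 fold change was -0.30 (SE 0.114, edgeR adjusted p 0.385). Ndufaf5, an assembly factor that modifies a core subunit, had 11.8 to 18.8 CPM in the spleens of these mice and 7.80 to 14.2 in the nodes, a log2 fold change of -0.38 (SE 0.126, edgeR adjusted p 0.320).

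T-like cells held about as much member RNA as B-like cells, with 18307 ± 3692 CPM (SD, n = 20) against 19239 ± 3809 (SD, n = 20). The Eµ-PRMT5 spleens had 16737, 17000, 15988, 27925 and 16493 CPM, the Eµ-TCL1 spleens 21879, 16716, 18318 and 16766, and the Eµ-PRMT5/TCL1 spleens 24395, 22386, 20577 and 11150. Apart from spleen 4 of each group, the Eµ-PRMT5/TCL1 spleens were above all Eµ-PRMT5 spleens and above 3 of 4 Eµ-TCL1 spleens. The share of T-like cells with a cell-cycle UMI was 29.1%, 17.5%, 14.1% and 21.5% in the last group, 1.82% to 18.3% with Eµ-TCL1 alone and 3.18% to 35.9% with Eµ-PRMT5 alone. Apart from spleen 4 of each group, the double transgenics had 14.1% to 29.1% and the Eµ-PRMT5 spleens 3.18% to 10.5%, or 6.06% to 20.2% and 1.30% to 5.26% after thinning to 1500 UMIs, without overlap, and the part of this share in the members' difference was not tested.

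None of the 80 members tested in T-like cells was called by edgeR or DESeq2 in any of the 3 spleen comparisons. With Xist as a covariate the medians that follow became -0.19, -0.41 and -0.20. For Eµ-PRMT5 over Eµ-TCL1 the median was 0.07 (0 members with an unadjusted p under 0.05 against 5.91% of genes, 0.00940% of genes called by edgeR, 27 genes by DESeq2), and -0.13 without Eµ-PRMT5 spleen 4, with 0 members at an unadjusted p under 0.05 against 8.38% of genes. Without the pair that stands apart it was -0.13 too, with 57 lower and 23 higher and 10 at an unadjusted p under 0.05 against 11.6% of genes (lowest edgeR adjusted p 0.270). For Eµ-PRMT5/TCL1 over Eµ-TCL1 it was -0.02 (1 member with an unadjusted p under 0.05 against 6.92% of genes, 0% of genes called by edgeR, 2 genes by DESeq2), and 0.24 without Eµ-PRMT5/TCL1 spleen 4, with 71 members higher and 9 lower and 3 with such a p against 3.99% of genes. The median and the counts of members higher and lower were the same without the pair that stands apart, where 14 members had an unadjusted p under 0.05 against 6.27% of genes (lowest edgeR adjusted p 0.761). For Eµ-PRMT5/TCL1 over Eµ-PRMT5 it was -0.10 (0 members with an unadjusted p under 0.05 against 5.01% of genes, 0% of genes called by edgeR, 5 genes by DESeq2). Without both libraries that last median was 0.33, with 77 higher and 3 lower, and 38 members had an unadjusted p under 0.05 against 13% of genes, yet the lowest edgeR adjusted p was 0.290. Leaving out Eµ-PRMT5 spleen 4 alone gave 0.11 and 5 such members against 12.2% of genes, and leaving out Eµ-PRMT5/TCL1 spleen 4 alone 0.17 and 0 against 5.40%. In the comparisons with Eµ-PRMT5 no member was free of overlap, against 1.16% of genes higher and 1.14% lower beside Eµ-TCL1, and 1.43% higher and 0.254% lower for both transgenes beside Eµ-PRMT5.

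The members with the lowest p in those comparisons were spread over roles. Atp5k, which helps ATP synthase form dimers, had 91.4, 165, 77.3, 135 and 73.9 CPM in Eµ-PRMT5 spleens against 115, 63.0, 65.7 and 55.6 with Eµ-TCL1 alone (log2 fold change 0.56, SE 0.397, edgeR adjusted p 0.892). Its groups overlapped, as did those of Ndufaf1 (log2 fold change -0.37) and Ndufs1 (0.25), the other two. Between double transgenics and Eµ-PRMT5 animals Ndufaf4 had 31.4, 25.7, 37.4 and 30.7 CPM against 39.4, 30.8, 39.7, 37.9 and 47.4, a log2 fold change of -0.51 (edgeR adjusted p 0.962), so its T-like values overlapped where its B-like values had not. Uqcrc1 had a log2 fold change of 0.31 there.

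Atp5b and Atp5a1, which form the catalytic head of ATP synthase, had the lowest p when T-like cells of double transgenic spleens were set against those with Eµ-TCL1 alone. Atp5b had 815, 547, 571 and 1115 CPM against 539, 494, 441 and 456, so that every Eµ-PRMT5/TCL1 spleen was above every Eµ-TCL1 spleen, with spleen 4 the highest. The log2 fold change was 0.49 (SE 0.228, edgeR adjusted p 0.711). Atp5b, Cox7a2l and Ndufaf6 were the 3 members higher without overlap, of 80, against 2.12% of genes, and none was lower, against 0.912%. Uqcrc2, a core protein of complex III, had 137, 116, 122 and 234 CPM against 125, 94.9, 104 and 114, with overlap (log2 fold change 0.30, SE 0.189, edgeR adjusted p 0.745).

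T-like cells of the nodes had 17610, 16540 and 14492 CPM in Eµ-TCL1 and 19364, 16606, 16431 and 18775 in Eµ-PRMT5/TCL1, and the groups overlapped. No member was called by edgeR or DESeq2 (0% of 10532 genes by edgeR, 68 genes by DESeq2), although 70 of 80 were higher in Eµ-PRMT5/TCL1 with a median of 0.24, beside 0.00 for all genes, and 5 had an unadjusted p under 0.05 against 12.1% of genes. Over the left-out libraries the median stayed between 0.14 and 0.27, and with Xist as a covariate it was 0.13. In the same fit all 6 cell-cycle genes were higher, with a median of 1.25 and 2 with an unadjusted p under 0.05, and 11 of 14 glycolysis genes, with a median of 0.37 and 4 with such a p. The share of T-like cells with a cell-cycle UMI was 22.5%, 6.56%, 7.49% and 7.83% in Eµ-PRMT5/TCL1 against 10.2%, 3.94% and 5.26%, or 8.82%, 3.62%, 4.04% and 5.04% against 3.93%, 1.91% and 1.96% after thinning, with overlap, and its part was not tested. Cox6c, a small subunit of complex IV, had 427, 346, 378 and 399 against 350, 285 and 255 CPM, with a log2 fold change of 0.50 (SE 0.183, edgeR adjusted p 0.350). Ndufa1, which is needed for complex I assembly, had 217, 152, 171 and 170 against 169, 133 and 110 CPM (log2 fold change 0.48, SE 0.164, edgeR adjusted p 0.343). Cox7c, of the same complex as Cox6c, had 618, 348, 431 and 418 against 424, 356 and 283 CPM (log2 fold change 0.44, SE 0.175, edgeR adjusted p 0.372). For Cox6c and Ndufa1, 1 Eµ-TCL1 node lay inside the range of the other group. Atp5d, Atp5g3, Cox5a and Uqcrb were higher without overlap, 4 of 80 against 2.24% of genes, and Ndufaf5 and Ndufb6 lower, 2 of 80 against 6.31%.

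In T-like cells the summed level was lower in the node in 6 of 7 mice, by log2 differences of -0.02, -0.31 and -0.21 in the Eµ-TCL1 mice and -0.25, -0.55 and -0.32 in the Eµ-PRMT5/TCL1 mice, the exception being M0980 with 0.80. With all mice 0 members were called by edgeR or DESeq2 (0.0274% of genes by edgeR, 173 genes by DESeq2), 4 had an unadjusted p under 0.05 against 11.8% of genes, and the median was -0.02. Without M0980 the median was -0.14, with 68 members lower and 12 higher and 23 with an unadjusted p under 0.05 against 15.9% of genes, the lowest edgeR adjusted p being 0.146. In these 6 mice 28 of 80 members were lower in every node, against 7.35% of genes, and none was higher in every node, against 1.97%. With all 7 mice the count was 4 (Atp5d, Atp5f1, Ndufaf6 and Uqcrc1), against 4.51% of genes, and 0 were higher, against 0.868%. The share of T-like cells with a cell-cycle UMI was lower in the node in 5 of the 6 mice without M0980, going from 18.3% to 10.2%, 4.31% to 3.94%, 17.5% to 7.83%, 29.1% to 6.56% and 14.1% to 7.49%, and from 1.82% to 5.26% in M0322. After thinning to 1500 UMIs it was lower in 4 of these mice, M0228 going from 1.71% to 1.91%. Its part in the members' difference was not tested, and leaving cycling cells out gave a median of 0.05 over the 7 mice. T-like clusters were also unevenly shared between tissues. The spleen of M0244 gave 77.8% of the cells of a cluster led by genes such as Lag3, Gzmk and Pdcd1. Its node gave 37.4% of a cluster with Il7r and Tcf7 among the leading genes. The part of such kinds of T-like cell was not tested. The interaction with genotype called 0 members by either tool (0% of genes by edgeR), with 0 under an unadjusted p of 0.05 against 1.22% of genes, and its median of 0.30 was -0.03 without M0980. Within Eµ-TCL1 mice alone the median was -0.14 and within Eµ-PRMT5/TCL1 mice 0.13, with 0 members and 0% of genes called by edgeR in both, and 0 and 2 members under an unadjusted p of 0.05 against 3.66% and 7.81% of genes. Without M0980 the second of these medians turned to -0.15, with 65 of 80 lower and 14 under such a p against 14.8% of genes.

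Uqcrc1 was again lower in the node of each mouse. It went from 178 CPM in the spleen to 163 in the node of M0228, 192 to 154 in M0244 and 185 to 128 in M0322 with Eµ-TCL1, and from 169 to 137 in M0942, 226 to 136 in M0955-RT, 196 to 130 in M1040 and 311 to 219 in M0980 with both transgenes. The log2 fold change was -0.29 (SE 0.113, edgeR adjusted p 0.353). All nodes but that of M0980 lay below all spleens of these genotypes. Ndufs8, an iron-sulphur core subunit of complex I, had 50.4 to 115 CPM in spleens and 42.6 to 66.6 in nodes (log2 fold change -0.36, SE 0.149, edgeR adjusted p 0.384). The assembly factor Ndufaf7 had 15 to 27.3 and 8.57 to 25.8 CPM (log2 fold change -0.44, edgeR adjusted p 0.392).

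Plasma-like cells give much of their RNA to immunoglobulin genes, 12% to 54.8% of UMIs per library, so members were set against the UMIs outside those genes. On that scale plasma-like cells had 20863 ± 4174 CPM (SD, n = 16) and B-like cells 19654 ± 3933 (SD, n = 20). Over all UMIs plasma-like cells had 14521 ± 5011 CPM. Within libraries the sum was higher in plasma-like than in B-like cells in 11 of 16, with a median log2 ratio of 0.08, and 38 members had a median ratio above 0 and 43 below, while 32.9% of 9126 features did.

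**Figure D3:**
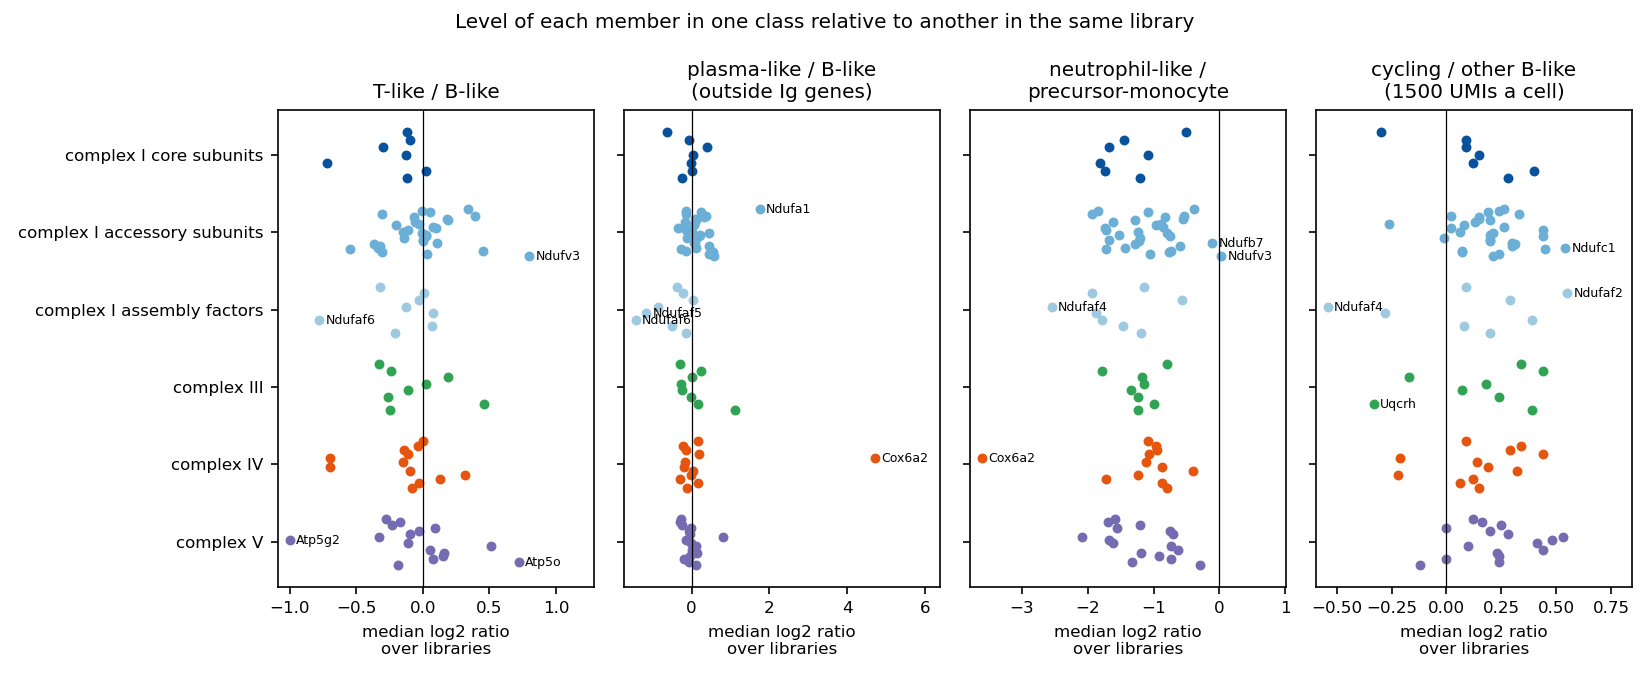
Median over libraries of the log2 ratio (x axis, pseudocount 1 CPM) of each member between 2 classes of the same library, by complex (rows). Cox6a2, Ndufa1 and Uqcrq stand to the right in plasma-like cells, the assembly factors to the left, and neutrophil-like cells are below the precursor/monocyte cluster in nearly every member.

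Single members went far from that average in plasma-like cells. Cox6a2 was at 80.3 CPM outside immunoglobulin genes against 1.69 in B-like cells of the same libraries (medians), a log2 ratio of 4.72, and was higher in 16 of 16 libraries. Over all UMIs its lowest plasma-like library was Eµ-PRMT5/TCL1 spleen 4 with 8.82 CPM from 57 UMIs, the median 49.1 and the highest Eµ-PRMT5/TCL1 node 4 with 325 CPM from 920 UMIs. In T-like cells it was at 0 to 4.47 CPM, and in myeloid-like cells at 0 to 340. The highest myeloid-like value was that of Eµ-PRMT5/TCL1 node 2, and the myeloid-like median was 11.1 CPM. Its means were 4.53 CPM in B-like, 0.634 in T-like, 69.3 in plasma-like and 35.3 in myeloid-like cells, so that it met the level of 5 CPM through classes where it is high, and its ratio is a description only. Its broadly expressed paralogue Cox6a1 had means of 324 CPM in B-like and 281 in plasma-like cells.

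Ndufa1 and Uqcrq were the next highest in plasma-like cells. Ndufa1 had 530 CPM against 150 (medians outside immunoglobulin genes, log2 ratio 1.75, lowest 1.29, highest 2.39) and Uqcrq, a small subunit of complex III, 700 against 315 (log2 ratio 1.12, 0.73 to 1.87). Both were higher in all 16 libraries. Atp5g1 (0.80) and Ndufv3 (0.58) were also higher in 16 of 16.

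Assembly factors of complex I lay on the other side. Ndufaf6 had 5.29 against 14.4 CPM (log2 ratio -1.43), Ndufaf5 5.74 against 14.3 (-1.16), Ndufaf4 21.6 against 38.4 (-0.87) and Ndufaf7, a methyltransferase, 11.5 against 16.8 (-0.51). The summed assembly factors were lower in plasma-like cells in 16 of 16 libraries, with a median of -0.36, while complex I accessory subunits were higher in 15 of 16 (0.22) and complex III in 15 of 16 (0.27). Ndufs1 was at 21.2 against 34.8 CPM (-0.62). The RNA of the mitochondrial genome was lower in 15 of 16 libraries (-0.35) and so was the TCA cycle list (-0.25). The median over all 9126 features was -0.23 on this scale, so the TCA cycle list lay near that of all features. Classes were made from the expression of all genes, so these ratios carry no test.

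**Figure D4:**
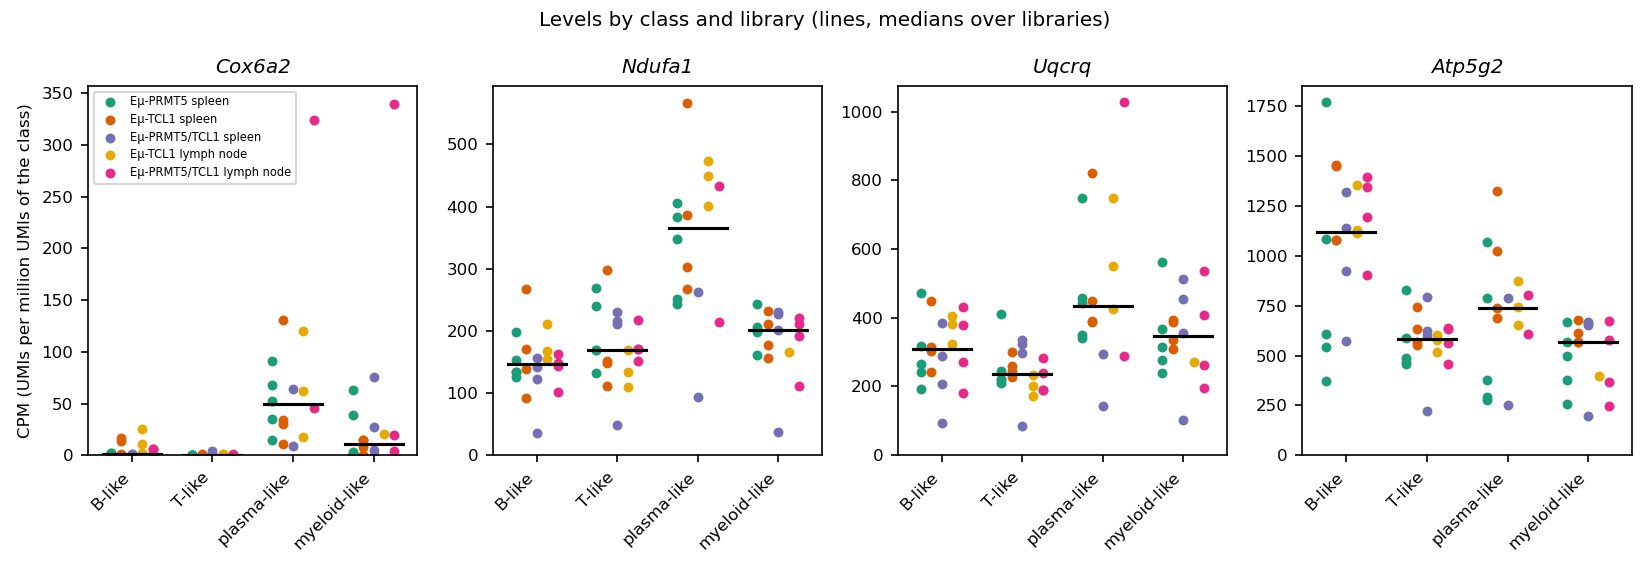
CPM (y axis) of Cox6a2, Ndufa1, Uqcrq and Atp5g2 in each library (points, by group) in the 4 classes, with medians over libraries as lines. The medians of the first 3 are highest in plasma-like cells (49.1, 366 and 433 CPM) and that of Atp5g2 is highest in B-like cells (1121 CPM).

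T-like cells differed from B-like cells in single members rather than in the sum, whose median log2 ratio was -0.04. Atp5g2 had 583 CPM against 1121 and was lower in 19 of 20 libraries (-1.0), Ndufs8 58.7 against 108 and Ndufaf6 7.30 against 13.9, both lower in 20 of 20 (-0.72 and -0.78), and Cox6c 356 against 582 (-0.70). The fifth, Cox6a2, was near 0 in both. Higher in T-like cells were Ndufv3, an accessory subunit, with 145 against 97.3 CPM in 20 of 20 libraries (0.80), Atp5o with 225 against 139 (0.72), Atp5h with 474 against 332 in 20 of 20 (0.51), the complex III hinge protein Uqcrh with 611 against 462 (0.46) and Ndufs4 with 129 against 95.1 (0.45).

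Among the spleens plasma-like cells had 0 of 79 members called for any difference between the 3 genotypes by edgeR or DESeq2 (0% of 7764 genes by edgeR, 115 genes by DESeq2), and 5 with an unadjusted p under 0.05 against 10.1% of genes. Only spleens 1 and 4 of Eµ-PRMT5/TCL1 had enough of these cells. Spleen 4 had enough only through 1 plasma-like cluster, of which it gave 98.1% of the cells. Without that cluster it kept 17 plasma-like cells. Ndufb2, an accessory subunit, had 97.1, 62.5, 37.8, 115 and 87.6 CPM in Eµ-PRMT5, 119, 108, 79.5 and 59.4 in Eµ-TCL1 and 51.4 and 22.9 in Eµ-PRMT5/TCL1 (edgeR adjusted p 0.395). Uqcrq had 340 to 748, 388 to 820 and 144 to 296 CPM (edgeR adjusted p 0.447). Ndufs8 had 44.9 to 103, 79.5 to 97.9, and 63.8 and 49.8 CPM (edgeR adjusted p 0.453). Both libraries of the last group were lowest for Uqcrq, and how many genes did the same was not counted. The last group overlapped with the others for Ndufb2 and Ndufs8. Leaving out Eµ-PRMT5/TCL1 spleen 1 called 6 of 79 members (Uqcrb, Ndufa5, Uqcrh, Ndufs6, Ndufv3 and Cox7a2, edgeR adjusted p 0.0453 to 0.0499), against 1.14% of genes. The Eµ-PRMT5/TCL1 group is then spleen 4 alone, with all but 17 of its 722 plasma-like cells in the cluster mostly of its own. The fit takes that group to vary like the others. Without the pair that stands apart that group is spleen 1 alone, under the same assumption, and 0 members were called (0.107% of genes by edgeR, lowest edgeR adjusted p of a member 0.372), with 1 at an unadjusted p under 0.05 against 11% of genes.

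Myeloid-like cells had 0 of 81 members called between the spleen genotypes by edgeR or DESeq2, 0 with an unadjusted p under 0.05 against 2.78% of genes, 0% of genes called by edgeR and 1 gene by DESeq2. Without the pair of libraries that stands apart 17 members had an unadjusted p under 0.05 against 8.64% of genes, with a lowest edgeR adjusted p of 0.514. The sums ran from 12974 to 27348 CPM in Eµ-PRMT5, 19054 to 22476 in Eµ-TCL1 and 10551 to 24695 in Eµ-PRMT5/TCL1 spleens. Uqcrc2, a core protein of complex III, had 119, 116, 118 and 192 CPM in Eµ-PRMT5/TCL1 against 83.7 to 116 in the other 9 spleens (edgeR adjusted p 1.000), and 1 value of each side was the same to 3 digits. Ndufa9, an accessory subunit of complex I, had 67.5, 64.8, 55.7 and 69.4 CPM against 17.4 to 57.2. Atp5b had 555, 689, 604 and 872 CPM against 319 to 588, and the ranges overlapped for both genes.

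The myeloid class joined cells of very different member levels. Neutrophil-like cells had 11775 ± 2176 CPM (SD, n = 14) and cells of the precursor/monocyte cluster 23810 ± 5557 (SD, n = 18). The ratio within libraries was below 0 in 14 of 14, with a median log2 of -1.06, and 79 of 80 members had a median below 0, while 20.3% of 8699 features had one above. Ndufv3, with 164 against 166 CPM, and Ndufb7, with 234 against 246, differed least, and Atp5g1, with 63.0 against 315 (-2.09), among the most. The median over all 8699 features was also below 0, at -0.78. The lower level held for the mitochondrial genome (-1.47) and the mitochondrial ribosome (-1.22), but not for glycolysis genes (0.06, higher in 7 of 14). It was not particular to mitochondrial genes, as cytosolic ribosomal protein genes were at -1.75. Libraries mixed the 2 kinds in different shares, and neutrophil markers of the whole class ran from 13613 to 248964 CPM over the 18 libraries. The library with the fewest, Eµ-PRMT5/TCL1 node 1, had 23 myeloid-like cells and a summed member level of 11456 CPM. The one with the most, Eµ-PRMT5/TCL1 node 3, had 16123 CPM. Eµ-PRMT5 spleen 5 and Eµ-PRMT5/TCL1 node 4 had few such markers (21498 and 39265 CPM) and sums of 20787 and 26051 CPM. Eµ-PRMT5 spleens 2 and 3 had many (182444 and 228778) and sums of 12974 and 14763 CPM. Other libraries went against that order, such as Eµ-PRMT5/TCL1 spleen 4 (51321 and 10551) and Eµ-TCL1 spleen 1 (182530 and 22476). The part of that mix in the class sums was not tested.

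Cells with a UMI of Mki67, Top2a, Birc5, Ccna2, Cdk1 or Ube2c were set beside the other cells of their class after each cell was thinned to 1500 UMIs, with the UMI looked for after thinning. Libraries with 20 or more such cells entered, 18 for B-like and 15 for T-like cells. A single UMI can also be free RNA. The lowest share among B-like and T-like cells was 0.829%, in T-like cells of Eµ-TCL1 spleen 4, whose B-like cells had 5.93%. In B-like cells the summed members were higher in cycling cells in 17 of 18 libraries, by a median log2 of 0.23 (-0.12 to 0.53), and 70 of 80 members were higher, while 42.8% of 9152 features were. The exception was Eµ-PRMT5 spleen 3, with 24 cycling cells. Among proton-ring genes Atp5g1 was higher by 0.53 in 17 of 18 libraries, with medians of 295 against 197 CPM, and Atp5g2 by 0.48 in 18 of 18, with 1396 against 1009. The summed assembly factors were higher in 11 of 18 (0.07). The mitochondrial genome was lower in cycling B-like cells in 16 of 18 libraries (-0.23). In T-like cells the sum was higher in 14 of 15 libraries, by a median log2 of 0.17, and 66 of 80 members were higher, while 51.3% of 9064 features were.

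Across the 20 libraries the summed level in B-like cells followed other lists measured in the same cells. With the summed mitochondrial ribosome genes Pearson's r was 0.93 and Spearman's rho 0.90, and without the pair of libraries that stands apart 0.85 and 0.86. With the share of B-like cells that had a cell-cycle UMI after thinning r was 0.70 and rho 0.69, and without that pair 0.76 and 0.82 (0.73, 0.74, 0.86 and 0.89 before thinning). With the mitochondrial genome, which encodes the partner subunits, r was -0.31 and rho -0.21, and without that pair -0.03 and -0.22. With the TCA cycle list r was -0.16. The median UMI count of the B-like cells moved with the sum too (r 0.74, rho 0.64, and 0.44 and 0.57 without that pair), and its part was not tested. These points share library, depth and total, and groups are mixed in them, so they are given as a description. In T-like cells the values with the mitochondrial ribosome were 0.92 and 0.86, and with the mitochondrial genome -0.47 and -0.53.

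The other genes of the pathway gave no calls either. Complex II (4 genes), the cytochromes Cyc1 and Cycs, the mitochondrial genome (13 genes), 78 mitochondrial ribosome genes, 14 TCA cycle genes and 11 regulators such as Nrf1 and Tfam had 0 genes called by edgeR in any spleen, node or tissue comparison of B-like or T-like cells. Over all genes edgeR called 0% to 0.0339% in these comparisons, so 0 calls do not set these lists apart. Calls by DESeq2 were not counted for them. The list of regulators also holds Myc. At an unadjusted p under 0.05, 6 of the 13 mitochondrial genome transcripts differed between node and spleen in T-like cells, where 12 of 13 were higher in the node with a median of 0.31, while 11.8% of genes and 4 of the 80 nuclear members had such a p. Without M0980, 9 of 13 had such a p, with 12 higher and a median of 0.37, where the nuclear members had -0.14. In T-like cells of double transgenics against Eµ-TCL1 spleens the mitochondrial transcripts had a median of -0.38, with 2 of 13 higher, beside -0.02 for the nuclear members, and a median of -0.25 without the pair of libraries that stands apart. All 11 regulators tested were higher in Eµ-PRMT5 than in Eµ-TCL1 spleens in B-like cells, with a median of 0.37 and 2 with an unadjusted p under 0.05, beside a median of 0.01 for the members. Without that pair 10 of 11 were higher, with a median of 0.33 beside -0.36 for the members.

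**Figure D5:**
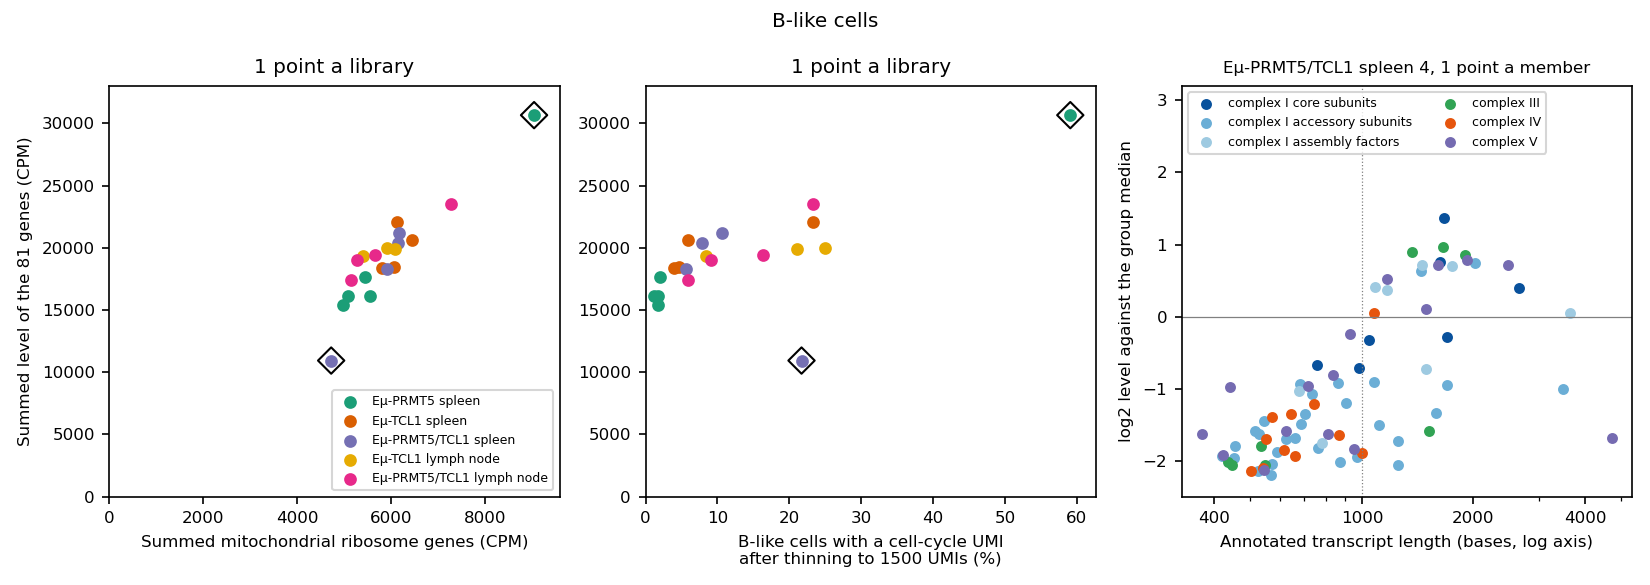
In B-like cells, summed level of the 81 genes (CPM) against summed mitochondrial ribosome genes (CPM) and against the share of cells with a cell-cycle UMI after thinning to 1500 UMIs (%), 1 point a library, with the pair that stands apart in diamonds; and, for Eµ-PRMT5/TCL1 spleen 4, log2 level of each member against the median of its group by annotated transcript length (bases, log axis). Both sums rise together, and members left of the dotted line at 1000 bases all lie below 0.

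Most members took part in this common movement, but not all. The median Spearman correlation of a member with the sum of the others over the 20 libraries was 0.66 in B-like cells, and 51 of 80 were above 0.5, compared with 6.47% of 9001 other genes. It was highest for Ndufc2, a complex I membrane-arm subunit, at 0.94. Below 0 were 8 members, led by Ndufs1 (-0.62), Ndufaf5 (-0.54), Ndufaf4 (-0.52) and Atp5s (-0.38), with the complex III core proteins Uqcrc2 (-0.25) and Uqcrc1 (-0.06) among them. Members with longer transcripts correlated less (Spearman -0.41 across members, which are not independent). In T-like cells the median was 0.72 and Ndufaf4 was the lowest, at -0.41. Among genes that are no members, Cmc2, a cytochrome c oxidase assembly factor, was the most alike (0.92), then Smdt1, a regulator of the mitochondrial calcium uniporter, Snrpd2 and Siva1 (0.91 each), Nedd8, Tmem256 and Srp19 (0.89 each), Cisd1 and Mrpl33 (0.88 each) and Ppia (0.87).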

How the data were processed

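The authors mapped 10x 3′ v2 reads to GRCm38 and deposited raw UMI counts per gene and barcode, unfiltered (737280 barcodes and 31053 genes per library). Their notes name Cell Ranger 2.0.1 and Seurat 2.2.1, and the matrix headers 3.1.0. From these counts, cells were taken as barcodes holding no fewer than 1500 UMIs and 200 genes, with mitochondrial transcripts at 10% or less. The top Scrublet scores were removed as doublets up to the expected rate (0.8% per 1000 cells, scanpy 1.11.5), leaving 779 to 8035 cells per library of 9348094 to 72440894 UMIs. Cells were clustered (2000 variable genes, 30 components, 15 neighbours, Leiden resolution 1, igraph 0.11.9) and named by marker lists, counts were summed per library and class with at least 20 cells, and genes were tested with edgeR 4.0.16 (quasi-likelihood, Benjamini-Hochberg over all genes, threshold 0.05), with DESeq2 1.42.0 as the alternative (R 4.3.3). Node and spleen were compared with the mouse as a block. Spleen comparisons were fitted on all 13 spleens. Class ratios used a pseudocount of 1 CPM and carry no test. Members and lists were chosen with earlier results of these data known. Members were named where they had the 3 lowest p in a comparison, were among the 5 highest in B-like cells or the 5 highest or lowest class ratios, stood next to the 5 CPM threshold, or had a paralogue of other tissue use. The 10 other genes most alike the sum by Spearman correlation were named too. The values of 1 member that met this rule are not reported here. Members without overlap between groups were named after their values were seen. Of the members, 12 overlap another annotated gene on their strand, so their counts may be shared. Fits were tested on simulated data. Replicates are different mice. Alternatives covered DESeq2, size factors, filters, cell definitions, immunoglobulin genes, cycling cells, thinning, Xist, pairing and each library left out.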

Additional observations from a re-analysis of the deposited data

Results flagged for a closer look

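Of 103 groups of 4 to 10 libraries examined, 14 had a library whose gap to the others exceeded Dixon's 95% limit, where chance alone marks about 1 group in 20. Eµ-PRMT5 spleen 4 had the highest summed level of its group, 30658 CPM in B-like cells beside 15421 to 17651 and 27925 in T-like cells beside 15988 to 17000, and 748 CPM of Uqcrq in plasma-like cells beside 340 to 458. Eµ-PRMT5/TCL1 spleen 4 had the lowest summed level in myeloid-like cells, 10551 CPM beside 22430 to 24695, and low Ndufa6 (99.3 beside 440 to 498 CPM) and Cox8a (283 beside 908 to 1030 CPM) in T-like cells. The same library was high for Uqcrc1 in B-like cells (314 beside 159 to 178 CPM) and Uqcrc2 in myeloid-like cells (192 beside 116 to 119).

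Eµ-PRMT5/TCL1 node 4 had 444 CPM of Cox6a1 in B-like cells beside 270 to 297, and in T-like cells 929 of Cox8a beside 747 to 771 and 514 of Atp5d beside 442 to 449. Eµ-TCL1 spleen 1 had 115 CPM of Atp5k in T-like cells beside 55.6 to 65.7 and 820 of Uqcrq in plasma-like cells beside 388 to 450. Eµ-PRMT5 spleen 5 had 6.70 CPM of Ndufaf1 in T-like cells beside 12 to 14.1.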

How the results depend on the processing

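Of 301 alternatives to the counts of members called, 300 gave 0 as before. The exception was plasma-like cells without Eµ-PRMT5/TCL1 spleen 1, so that over the left-out libraries that count ran from 0 to 6. The summed level of plasma-like cells, 14521 CPM over all UMIs, was 20863 CPM outside immunoglobulin genes. All 749 alternatives for single members gave the same direction and side, and 231 of 240 for levels moved by less than 1 SD. Those members had the lowest p in the same data, a choice that favours a stable direction. The members' median did change sign in some comparisons with 1 library or mouse left out. For Eµ-PRMT5/TCL1 over Eµ-PRMT5 spleens in B-like cells it went from -0.17 to 0.19. Leaving out the pair of libraries that stands apart, adding the unnamed clusters back, and leaving out a plasma-like cluster mostly of 1 library or one kind of myeloid-like cells were chosen after seeing the data.

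Replicate numbers mark no shared animal within a tissue. Whether they mark a batch is not given, and within each spleen group they follow the order of the library numbers. Deviations of same-numbered libraries correlated by more than 0.1 in 6 of 15 pairs in B-like and 6 of 15 in T-like cells. Differently numbered pairs ran from -0.25 to 0.27 in B-like and from -0.50 to 0.54 in T-like cells, and how many exceeded 0.1 was not counted. A replicate block called 0 members in every spleen and node comparison of B-like and T-like cells, where edgeR called 0 genes in 6 of the 8 fits and 2 and 1 genes in the T-like comparisons with Eµ-TCL1 spleens, and turned the median log2 fold change of the B-like nodes from 0.08 to -0.08. Node and spleen were blocked by mouse, not by number. With no replicate block of that kind, and the pairing by mouse ignored, they gave 0 members called, with medians of 0.07 in B-like and -0.08 in T-like cells. Over all genes edgeR called 3 in B-like and 0 in T-like cells there. With the level of Xist, an RNA of the inactive X chromosome, as a covariate the medians for Eµ-PRMT5/TCL1 over Eµ-TCL1 spleens were -0.59 in B-like and -0.41 in T-like cells, against -0.20 and -0.02, and for Eµ-PRMT5 over Eµ-TCL1 they turned from 0.01 to -0.29 and from 0.07 to -0.19. The cause was not tested. The fewest T-like or B-like cells in a library were 102, which limits the precision of genes of a few CPM.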

Other observations

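Myeloid-like cells are set here against B-like cells, with genes chosen after their values were seen. Several of these differences were shared with another class. Mean Atp5g2 was 513 CPM in myeloid-like and 578 in T-like cells, and mean Ndufv3 162 and 164 CPM. Mean Ndufaf4 was 13.2 CPM in myeloid-like and 15.5 in plasma-like cells, and mean Ndufaf1 8.75 and 9.58 CPM. In medians over 18 libraries, Ndufaf4 had 12.9 CPM against 35.6 in B-like cells and was lower in 18 of 18 (log2 ratio -1.28), Ndufaf1 8.08 against 16.4, lower in 18 of 18 (-0.97), and Atp5g2 569 against 1110, lower in 17 of 18 (-1.13). Another assembly factor, Ndufaf7, stood on the other side with 32.5 against 16.5 CPM and was higher in 17 of 18 libraries (0.93), as was Uqcrb with 248 against 157 (0.72). Ndufv3 was at 171 against 97.3 CPM (0.85, higher in 16 of 18). Over all members 48 had a median ratio above 0 and 33 below, while 39.5% of 9402 features were above.

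T-like cells had lower levels than B-like cells of the same library for the cytochromes in 19 of 20 libraries (median log2 ratio -0.37), for the mitochondrial ribosome in 19 of 20 (-0.23) and for the mitochondrial genome in 16 of 20 (-0.24), while the nuclear members differed by -0.04. In B-like cells the summed regulators ran against the members across the 20 libraries (Pearson's r -0.69, Spearman's rho -0.87, and -0.76 and -0.84 without the pair that stands apart), and in T-like cells less so (-0.58 and -0.41, then -0.17 and -0.19). The regulator list includes Myc, and a sum is weighted to its most abundant genes. These values therefore do not describe each regulator. These points share library and depth.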
